A study of Mus musculus with 8 samples.

Results

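Complement is a set of blood and tissue proteins that mark microbes and debris for uptake and punch holes in membranes. Most of it is made in the liver, but macrophages make a share of their own, and the genes described here are 8 components of that kind: C1qa, C1qb, C1qc, C2, C4b, C3, Cfb and Cfp. They were chosen by gene symbol and all 8 were found among the 17364 gene symbols measured. Expression was measured by sequencing poly(A) RNA of bone-marrow-derived macrophages, cells matured in culture from marrow of the mouse. The tested cells carried the Sept2C111A allele, named for the replacement of cysteine 111 by alanine in septin 2, a GTP-binding protein of the cytoskeleton, and they were compared with wild-type cells. Every culture of both genotypes had been treated with TNF-α, an inflammatory cytokine, (30 ng/ml, 24 h). The values therefore show the treated state and not the response to TNF-α. There were 4 libraries of each genotype. Not given in the sources used here are the strain, the sex and age of the mice and whether both chromosomes carried the allele. Whether the libraries of a genotype stem from different mice or cultures is likewise not stated, so the p-values measure only spread between these samples, and that spread may be technical.

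The cascade can start in several ways. C1q, built from the chains A, B and C, binds antibody or a surface directly and activates the proteases C1r and C1s, which cut C4 and C2 into the classical C3 convertase. In the alternative pathway, factor B joins deposited C3b to form another convertase, and properdin (Cfp) holds that enzyme together. Both converge on C3, whose fragments coat the target and signal through receptors. Macrophages and related myeloid cells are the main source of C1q in the body, and properdin is likewise a product of leukocytes.

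Total expected counts per library were 19543958 to 21288493. A gene with no read lies below 0.140 to 0.159 CPM (counts scaled to the normalized library size), the level of 3 counts, which covers counting error only. Sept2C111A libraries 2 and 3 stood apart on the first principal component of all tested genes, at 28.2 and 36.6, while Sept2C111A libraries 1 and 4 were at 0.866 and -1.97 and wild-type libraries between -19.4 and -11.2. Sept2C111A libraries had a biological coefficient of variation of 0.138, wild-type libraries of 0.0604. Sept2 itself, listed as Septin2, averaged 188 ± 18.7 CPM in Sept2C111A and 226 ± 7.43 CPM in wild-type libraries (SD, n = 4 each, as for all values given with ±; edgeR adjusted p = 0.0627). Gene counts do not show the base change. All 14 macrophage markers were tested, with summed levels of 22365 to 24509 CPM in Sept2C111A and 24654 to 26392 CPM in wild-type libraries, and 1 of them, Fcgr1, was called, as higher. Lyz2 dominated these sums, averaging 12366 CPM in Sept2C111A and 14365 CPM in wild-type libraries. Of the 14 fold changes 9 were positive and 5 negative, with a median log2 fold change of 0.07. Stromal markers were abundant too: 14 of 15 were tested, all 14 had negative fold changes, and 3 (Col1a1, Postn and Acta2) were called lower. Their summed level was 4893 to 6225 CPM in Sept2C111A and 6276 to 8052 CPM in wild-type libraries. Summed markers of neutrophils were at 9.31 to 14.9 and 9.42 to 13.8 CPM in Sept2C111A and wild-type libraries, and those of dendritic, lymphoid, mast and liver cells at 12.4 CPM or less in each library. Endothelial markers summed to 5.57 to 6.53 CPM in Sept2C111A and 4.43 to 4.87 CPM in wild-type libraries, and Pecam1 among them was called higher. Pecam1 made up most of that sum, averaging 4.02 CPM in Sept2C111A and 2.92 CPM in wild-type libraries. The other tested endothelial markers were not called and differed in sign, with log2 fold changes of -0.51 for Cdh5 and 0.32 for Kdr. Beside the calls in these marker lists, edgeR called 3.43% of all tested genes higher and 3.03% lower. The RNA is from cultures in bulk, where fewer cells of a type and less RNA per cell cannot be told apart.

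The components fell into abundant and scarce ones, and the order of levels was largely shared by both genotypes. For levels between genes, counts were divided by the median length of the gene's GENCODE transcripts and rescaled to the same total in every library, as TPM is. On this per-length scale C1qb was at 4958 ± 706 in Sept2C111A and 4316 ± 238 in wild-type libraries, ranking 17 among 16936 genes with a length. C1qc followed with 3301 ± 111 in Sept2C111A and 2953 ± 54.1 in wild-type libraries, and C1qa with 2042 ± 205 in Sept2C111A and 1823 ± 110 in wild-type libraries. The chains of C1q therefore kept the order B, C, A in both genotypes, with ranges that did not touch. C3, the central component, had a per-length level of 816 ± 124 in Sept2C111A and 1117 ± 126 in wild-type libraries. Cfp had 699 ± 101 in Sept2C111A and 565 ± 32.3 in wild-type libraries. C2, Cfb and C4b were far scarcer, at per-length levels of 6.24 ± 0.372, 4.67 ± 0.930 and 2.11 ± 0.391 in Sept2C111A and 5.00 ± 0.262, 4.20 ± 0.559 and 1.11 ± 0.294 in wild-type libraries. Some neighbours in this order were not separated by their spread: C3 and Cfp in Sept2C111A and C2 and Cfb in wild-type libraries. Both pairs also changed order when the longest transcript was used, because GENCODE lists short partial transcripts for some of these genes (a median of 608 bases for C3 against a longest of 5136). With the longest transcript Cfp had a per-length level of 919 ± 117 in Sept2C111A and 759 ± 45.3 in wild-type libraries, and C3 one of 205 ± 33.0 in Sept2C111A and 285 ± 34.0 in wild-type libraries.

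**Figure D1:**
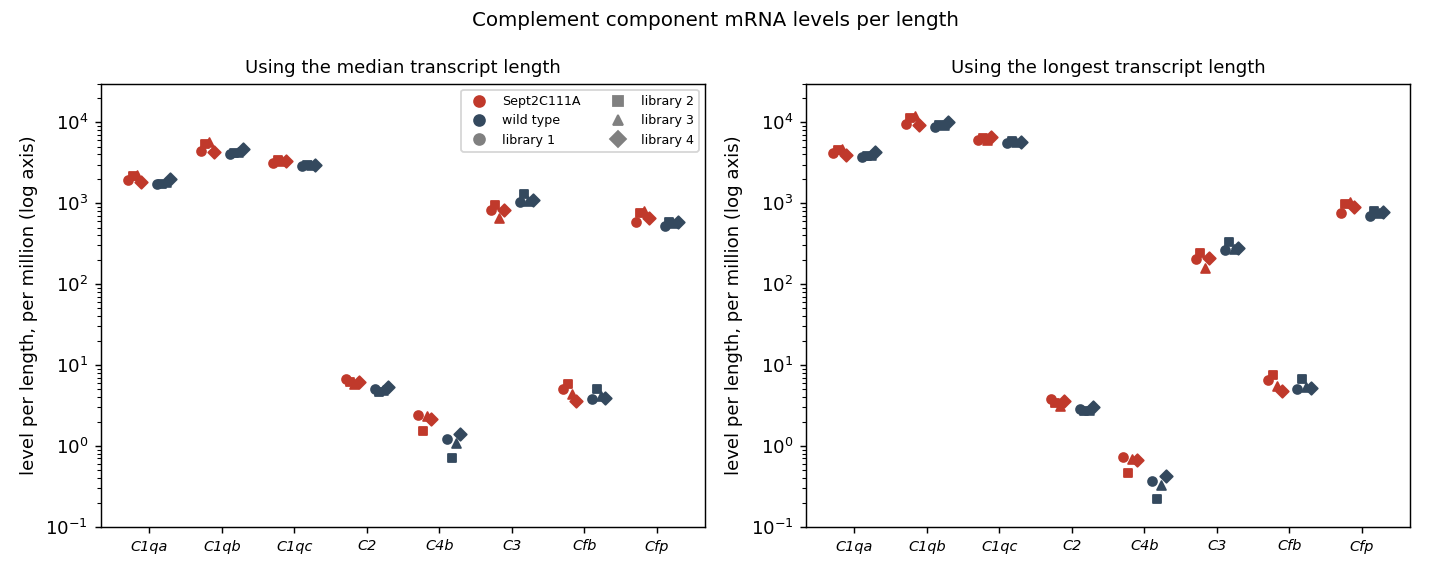
Levels of the 8 components per length, rescaled to the same total in every library, on a log axis, with the median (left) or the longest (right) transcript length of each gene; each point is 1 library, Sept2C111A left of wild type. The C1q chains are the most abundant on both scales and C4b the least, while C3 and Cfp change places.

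Of the 8 components, 1 was called at an edgeR adjusted p under 0.05, C4b, as higher in Sept2C111A. Of the 12462 tested genes, 6.46% were called in either direction and 3.43% as higher. None was called lower (3.03% of tested genes were). The coefficient of variation of CPM was higher in Sept2C111A for 6 of the 8, all but C2 and C4b, and was 21.0% in Sept2C111A and 6.43% in wild-type libraries for C1qb. At an unadjusted p under 0.05 the components numbered 6, with 5 positive and 1 negative (C3) fold changes, against 24.8% of tested genes. DESeq2 called 4 components (C1qc, C4b and Cfp higher, C3 lower; 11.6% of tested genes called) and limma voom with sample weights also 4 (C1qc, C2 and C4b higher, C3 lower; 10.8%). The median log2 fold change was 0.27 over the components and 0.01 over all tested genes, and 7 of the 8 were positive. The groups did not overlap for C1qc, C2 and C4b, all higher in Sept2C111A, as they did not for 8.47% of tested genes in that direction. The number of calls depended on 1 library above all: without Sept2C111A library 4, edgeR called 7 components, 6 higher and 1 lower, with Cfb the exception, but also 16.5% of all tested genes. Without Sept2C111A libraries 2 and 3 together, left out after the data were seen, C3 was the only component called (3.86% of all tested genes called).

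**Figure D2:**
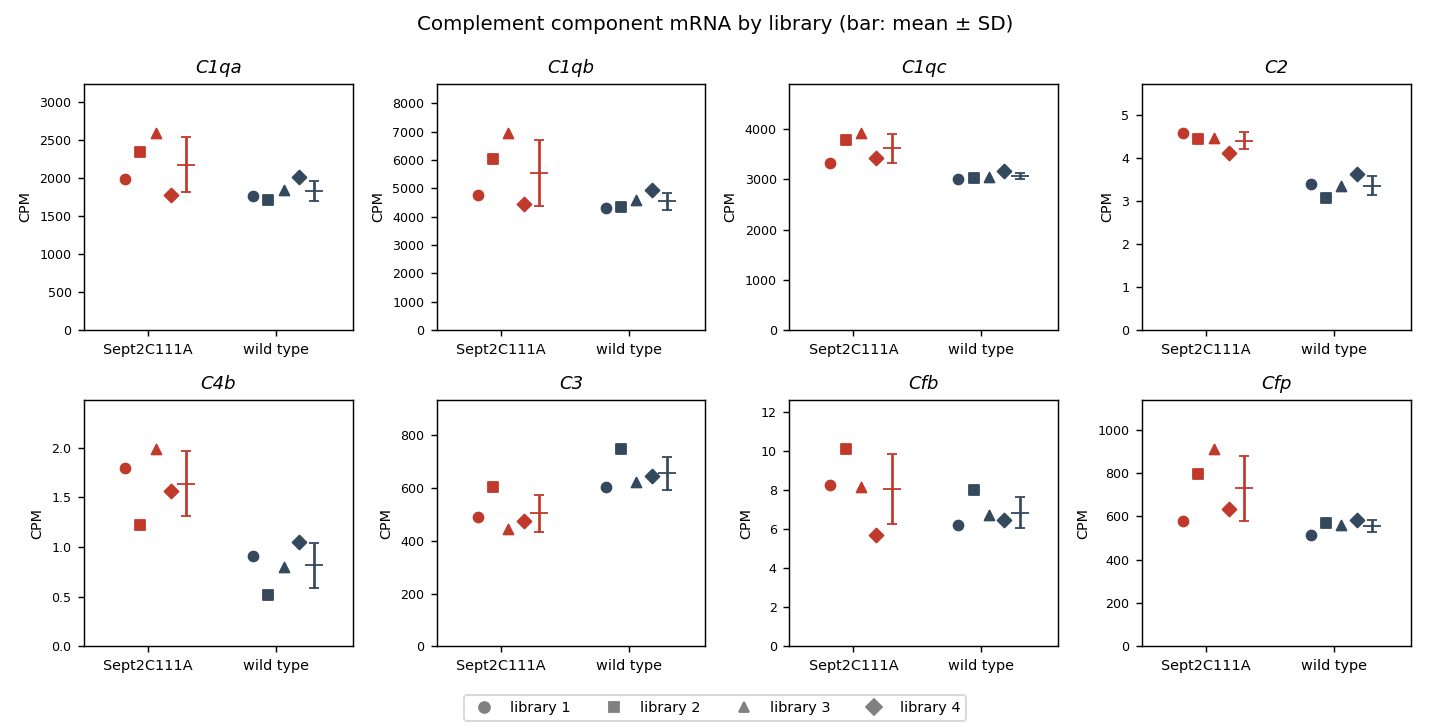
CPM of each component in each library, Sept2C111A left of wild type, with 1 marker shape per library number and the mean ± SD of 4 libraries beside the points; axes start at 0. C1qc, C2 and C4b show no overlap between genotypes, C3 lies lower in 3 of 4 Sept2C111A libraries, and Sept2C111A libraries 2 and 3 are the highest of all 8 for C1qa, C1qb, C1qc and Cfp.

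C1q is encoded by 3 protein-coding genes side by side on the minus strand of chromosome 4, within 18.7 kb (GRCm38, the mm10 build, GENCODE M21): C1qb at chr4:136880129-136886187, C1qc at chr4:136889804-136893065 and C1qa at chr4:136895917-136898803. None of them overlaps another annotated gene, and no 50-base stretch of their longest transcripts occurs in a transcript of another gene, so their reads were not shared with a copy. The 200 bases before the RefSeq start sites of C1qb (chr4:136886201-136886400, minus strand) and C1qc (chr4:136892915-136893114, minus strand) are shown because these neighbours form 1 protein; both are RefSeq sequence of GRCm38.p6, written 5′ to 3′ on the gene's strand. Capitals mark the letters GAGGAA, the core bound by the myeloid factor PU.1, on either strand.
C1qb: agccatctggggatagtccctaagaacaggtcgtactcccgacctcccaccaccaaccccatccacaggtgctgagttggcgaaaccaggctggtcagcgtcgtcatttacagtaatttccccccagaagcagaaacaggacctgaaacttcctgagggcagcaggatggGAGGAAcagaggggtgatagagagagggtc
C1qc: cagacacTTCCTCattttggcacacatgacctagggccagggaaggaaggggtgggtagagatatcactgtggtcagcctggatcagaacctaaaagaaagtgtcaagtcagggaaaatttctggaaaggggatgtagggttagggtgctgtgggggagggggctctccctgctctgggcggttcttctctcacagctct
The core was found once in each, on the gene's strand in C1qb and on the opposite strand in C1qc, and 18.9% of 27025 RefSeq promoters of this length hold it. The C1qc window lies partly inside the GENCODE gene, whose start is upstream of the RefSeq one. Neither window held the interferon-response letters (GAAA, any NN, GAAA; 2.33% of promoters), the STAT letters TTCNNNGAA (5.62%), the NF-κB letters (GGG, any NN, TTTCC; 1.15%) or the C/EBP letters TTGCNNAA (7.47%), each searched on both strands. These are matches of letters and say nothing of binding.

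C1qa RNA, for the A chain, was at 1987, 2344, 2595 and 1782 CPM in Sept2C111A libraries 1 to 4, against 1762, 1717, 1839 and 2015 CPM in wild-type libraries 1 to 4. Libraries 2 and 3 of Sept2C111A lay above all wild-type libraries, and the others lay within their range. The estimated ratio was 1.19 (95% interval 1.00 to 1.41), with an edgeR adjusted p of 0.201. C1qb, for the B chain, showed the same layout at a higher count, with 4750, 6026, 6953 and 4436 CPM in Sept2C111A libraries and 4319, 4323, 4572 and 4938 CPM in wild-type libraries. Its ratio was 1.22 (0.999 to 1.49; edgeR adjusted p = 0.204). C1qc, for the C chain, had 3331, 3793, 3929 and 3418 CPM in Sept2C111A libraries, against 3016, 3029, 3057 and 3159 CPM in wild-type libraries. Here all 4 Sept2C111A libraries were above all 4 wild-type libraries, and the exact permutation p (two-sided, log2 CPM) was 0.0286, which no result of 4 against 4 libraries can undercut. The ratio was 1.18 (1.05 to 1.32), yet the edgeR adjusted p of 0.0765 did not pass. Without Sept2C111A library 4 all 3 chains passed (adjusted p 0.0342 to 0.0426), and without libraries 2 and 3 the log2 fold changes were 0.04, 0.02 and 0.14 for C1qa, C1qb and C1qc, none of them called.

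All 3 chains were highest in Sept2C111A libraries 2 and 3, but they did not move together throughout. In Sept2C111A library 4, C1qc lay above all wild-type libraries, while C1qa and C1qb lay within the wild-type range. C1q made up 1.02%, 1.17%, 1.24% and 0.989% of all reads in Sept2C111A libraries 1 to 4, against 0.923%, 0.936%, 0.964% and 1.02% in wild-type libraries. Per length, the A chain supplied 20.4%, 19.9%, 19.9% and 19.1% of C1q RNA in Sept2C111A libraries and 20.0%, 19.5%, 20.1% and 20.6% in wild-type libraries. The A share thus stayed between 19.1% and 20.6% in all 8 libraries. The B share varied more, at 46.6%, 48.9%, 51.0% and 45.4% in Sept2C111A libraries and 46.9%, 47.1%, 47.7% and 48.2% in wild-type libraries. Because the shares sum to the whole and the A share varied little, the C share had to mirror the B share. It was 33.1%, 31.2%, 29.2% and 35.5% in Sept2C111A libraries and 33.1%, 33.4%, 32.3% and 31.2% in wild-type libraries. The SD of the B share was 2.46 percentage points among Sept2C111A and 0.608 among wild-type libraries, and the extremes of the B and C shares were Sept2C111A libraries 3 and 4. The means of all 3 shares differed by less than their spread between genotypes, 48.0% in Sept2C111A and 47.4% in wild-type libraries for the B chain.

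Properdin, the product of Cfp, is encoded on chromosome X (chrX:20925454-20931555, minus strand) by a protein-coding gene with no overlapping gene and no 50-base stretch shared with another gene. Its CPM was 579, 797, 909 and 636 in Sept2C111A libraries, against 515, 568, 559 and 583 in wild-type libraries. Sept2C111A libraries 2 and 3 were again the highest, and library 1 lay just inside the wild-type range. The ratio was 1.31 (95% interval 1.08 to 1.59), with an edgeR adjusted p of 0.0853 that did not pass. It passed in edgeR without Sept2C111A library 1 or 4 (adjusted p 0.0310 in both). Without Sept2C111A libraries 2 and 3 the log2 fold change was 0.13 (adjusted p 0.355).

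**Figure D3:**
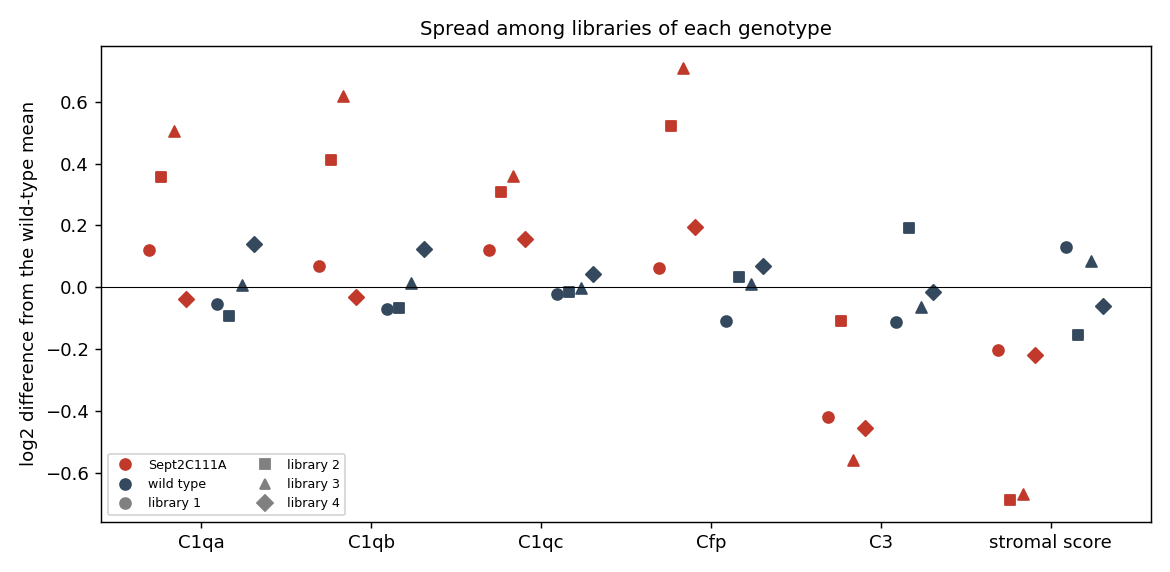
Difference of each library's log2 CPM from the mean of the wild-type libraries for the C1q chains, Cfp and C3, and the same for the stromal marker score (mean log2 CPM of 14 markers); red, Sept2C111A, left of dark blue, wild type, with 1 marker shape per library number. Sept2C111A libraries 2 and 3 are highest for the C1q chains and Cfp and lowest for the stromal score, while for C3 library 2 is the highest of its genotype and library 3 the lowest.

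Within Sept2C111A, the stromal marker score was lowest in the libraries where C1q and properdin RNA were highest. It was 6.40, 5.91, 5.93 and 6.38 (mean log2 CPM) in Sept2C111A libraries 1 to 4, against 6.73, 6.44, 6.68 and 6.54 in wild-type libraries, so that Sept2C111A libraries 2 and 3 had the lowest. Among wild-type libraries, the scores were lowest in libraries 2 and 4. Cfp was highest there, at 568 and 583 CPM, against 515 and 559 CPM in wild-type libraries 1 and 3. Summed C1q did not follow the score in this way, being lowest in wild-type library 2 (9069 CPM) and highest in library 4 (10112 CPM). In the score all Sept2C111A libraries were below all wild-type libraries, so the score and the genotype overlap as terms of a model. With the score as a covariate, a term added after the data were seen, the log2 fold changes of C1qa, C1qb, C1qc and Cfp were -0.065, -0.12, 0.081 and -0.039, against 0.25, 0.29, 0.24 and 0.39 without it. Because of that overlap the fit cannot tell the score from the genotype, and the part of stromal cells in these values was not tested.

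C3 was the 1 component with a negative fold change. It is the convergence point of the cascade and is known to be induced by inflammatory cytokines. The gene lies at chr17:57203970-57228136 on the minus strand, is protein-coding, and shares no 50-base stretch with another gene. Its RefSeq sequence before the start site (GRCm38.p6, chr17:57228137-57228336, minus strand, 5′ to 3′) is shown because its direction set C3 apart from the C1q genes above, with the C/EBP letters TTGCNNAA in capitals.
C3: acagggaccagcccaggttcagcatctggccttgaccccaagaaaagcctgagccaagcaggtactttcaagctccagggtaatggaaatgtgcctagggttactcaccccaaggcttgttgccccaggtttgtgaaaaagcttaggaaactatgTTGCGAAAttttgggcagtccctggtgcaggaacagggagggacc
That window held 1 match of the C/EBP letters and none of the other 4 motifs searched. Cfp, the remaining component with a RefSeq promoter sequence at hand, had no match to any of the 5.

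C3 was at 489, 606, 444 and 477 CPM in Sept2C111A libraries 1 to 4, against 605, 746, 624 and 646 CPM in wild-type libraries 1 to 4. Libraries 1, 3 and 4 of Sept2C111A were lower than every wild-type value, and library 2 lay just above the lowest of them. The ratio was 0.769 (95% interval 0.657 to 0.899), or a log2 fold change of -0.38 (SE 0.10), and the edgeR adjusted p of 0.0528 just missed the threshold. Without Sept2C111A library 2 it passed, at a log2 fold change of -0.48 (adjusted p 0.0218), and also without library 4 (adjusted p 0.0482). It was -0.44 without Sept2C111A libraries 2 and 3 (adjusted p 0.0164), and with the stromal score as a covariate -0.56 (adjusted p 0.176). A ratio within a library does not depend on its scaling: the summed CPM of the C1q chains was 20.6, 20.1, 30.4 and 20.2 times that of C3 in Sept2C111A libraries, against 15.0, 12.1, 15.2 and 15.6 times in wild-type libraries. All 4 Sept2C111A ratios were above all 4 wild-type ratios. This ratio was formed after the values were seen and is given without a test.

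C4b and C2 supply the parts of the classical convertase. C4b is a protein-coding gene at chr17:34728380-34743882 in the major histocompatibility region, on the minus strand, and had few reads: 38, 23, 39 and 33 counts in Sept2C111A libraries, against 19, 11, 17 and 22 in wild-type libraries. As CPM these were 1.80, 1.22, 1.98 and 1.56 in Sept2C111A libraries and 0.906, 0.513, 0.802 and 1.05 in wild-type libraries. C4b rose in Sept2C111A, with no overlap between the groups, a ratio of 2.00 (95% interval 1.36 to 2.95) and an edgeR adjusted p of 0.0408. The call was lost when any single library other than Sept2C111A library 4 was left out (adjusted p 0.0505 to 0.123), while the log2 fold change stayed between 0.84 and 1.15. It was also lost without Sept2C111A libraries 2 and 3 (adjusted p 0.0835), with the stromal score as a covariate (0.357) and with the replicate block (0.0557). Its close copy C4a lies 65209 bases away at chr17:34809092-34823464, and 35.2% of the 50-base stretches of the longest C4b transcript also occur in C4a transcripts, so the split of reads between them is uncertain. C4a was annotated as a processed transcript and listed at 17, 15, 7 and 6 counts in Sept2C111A and 9, 15, 9 and 2 in wild-type libraries, too few to be tested alone. With the counts of both genes summed, an alternative added after the data were seen, the log2 fold change was 0.84 (SE 0.18) and the adjusted p 0.0214.

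C2, the protease subunit that pairs with C4b, was at 4.59, 4.45, 4.48 and 4.11 CPM in Sept2C111A libraries, against 3.39, 3.08, 3.35 and 3.63 CPM in wild-type libraries. The groups did not overlap (exact two-sided permutation p = 0.0286), and the ratio was 1.31 (95% interval 1.10 to 1.57), with an edgeR adjusted p of 0.0703 that did not pass. It passed without Sept2C111A library 4 (adjusted p 0.0442). The log2 fold change was 0.37 without Sept2C111A libraries 2 and 3 (adjusted p 0.211). With the stromal score as a covariate it was 0.38 (adjusted p 0.629), and C2 was called in neither fit. Cfb, its counterpart in the alternative pathway, was at 8.28, 10.1, 8.14 and 5.72 CPM in Sept2C111A libraries, against 6.20, 7.98, 6.70 and 6.44 CPM in wild-type libraries. The highest and the lowest of these 8 values were both from Sept2C111A, in libraries 2 and 4. The ratio of 1.18 had an interval of 0.921 to 1.50 (edgeR adjusted p = 0.394), which includes both a ratio of 1 and the ratio estimated for C2.

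C2 (chr17:34862604-34898265) and Cfb (chr17:34856374-34862518) are protein-coding genes on the minus strand, 85 bases apart, and GENCODE lists a transcript gene, Gm20547, that overlaps both. It shares 58.0% of the 50-base stretches of the longest C2 transcript and 81.4% of those of Cfb. C2 also overlaps Zbtb12 on the opposite strand, and since the strandedness of the libraries is not given, reads there cannot be told apart. Among tested genes within 100 kb of these loci, edgeR called 1 of 15 beside C4b, Cfb and C2 (Neu1, higher), 1 of 4 beside C3 (Tnfsf9, lower), 1 of 6 beside Cfp (Syn1, higher) and 0 of 2 beside the C1q genes. Over all tested genes 6.46% were called, and counts of neighbours this small cannot be told from that share.

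**Figure D4:**
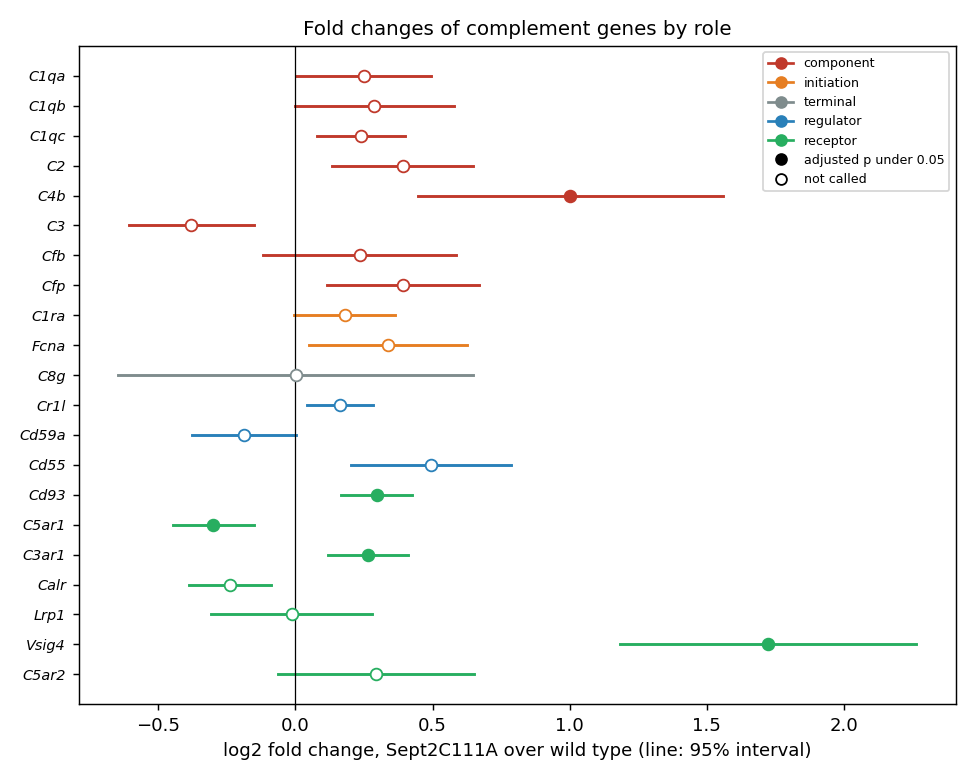
Log2 fold change of Sept2C111A over wild type from edgeR, with 95% intervals, for the 8 components and for named genes of complement initiation, the terminal pathway, regulation and reception; filled points passed an adjusted p under 0.05. C4b, Cd93, C3ar1 and Vsig4 passed as higher and C5ar1 as lower.

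Among other genes of the pathway, edgeR called 4 receptors and no initiating, terminal or regulatory factor. Of 13 listed receptors of complement fragments and C1q, 12 were tested, 3 rose, 1 fell and 8 did not pass, with a median log2 fold change of -0.01. Of all tested genes, 3.43% were called higher and 3.03% lower. C3ar1, the receptor for the C3a fragment, was at 906, 1047, 981 and 927 CPM in Sept2C111A libraries and 809, 788, 782 and 833 CPM in wild-type libraries (log2 fold change 0.27, edgeR adjusted p = 0.0386). C5ar1, the receptor for C5a, fell to 514, 473, 437 and 449 CPM in Sept2C111A libraries, against 589, 566, 557 and 594 CPM in wild-type libraries (-0.30, adjusted p = 0.0272). These receptors moved in opposite directions, and neither overlapped between groups, as was so for 16.9% of all tested genes. C5ar2, another C5a receptor, named after its values were seen, was at 4.49, 3.87, 4.32 and 5.63 CPM in Sept2C111A libraries and 2.86, 3.78, 4.10 and 4.20 CPM in wild-type libraries, which overlapped (log2 fold change 0.30, adjusted p = 0.286). Cd93, a surface glycoprotein first described as a C1q receptor, rose to 246, 269, 255 and 274 CPM in Sept2C111A libraries, against 210, 218, 204 and 219 CPM in wild-type libraries (log2 fold change 0.30, adjusted p = 0.0171). Vsig4, a receptor for C3 fragments on resident macrophages that was named after its values were seen, was scarce and rose to 1.66, 1.48, 1.73 and 1.28 CPM, against 0.382, 0.653, 0.424 and 0.382 CPM in wild-type libraries (log2 fold change 1.72, SE 0.25, adjusted p = 0.00257). Its counts were 35, 28, 34 and 27 in Sept2C111A libraries and only 8, 14, 9 and 8 in wild-type libraries. It thus passed the low-count filter through the Sept2C111A libraries, where it was high. With no such filter its edgeR adjusted p was 0.00238.

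With the stromal score as a covariate none of the 4 receptor calls held (adjusted p 0.127 for Vsig4, 0.386 for Cd93, 0.565 for C5ar1 and 0.748 for C3ar1). That fit called only 56 of all 12462 tested genes, so the loss is not particular to these receptors. The log2 fold changes in it were 1.52 for Vsig4, 0.26 for Cd93, -0.23 for C5ar1 and 0.15 for C3ar1. The call of Vsig4 held with any single library left out. Those of C3ar1 and C5ar1 were lost without Sept2C111A library 2 or any single wild-type library (adjusted p 0.0833 to 0.142 and 0.0607 to 0.0975), and that of Cd93 without Sept2C111A library 2 or wild-type library 1 or 3 (0.0560 to 0.0821). Without Sept2C111A libraries 2 and 3 together, 2 receptors were called higher (Vsig4 and Cd93) and 1 lower (Calr), against 3.86% of all tested genes called in either direction. Calr, encoding calreticulin, which can bind C1q, averaged 789 ± 59.5 CPM in Sept2C111A and 931 ± 9.53 CPM in wild-type libraries, with an adjusted p of 0.0622 over all libraries. Lrp1, its partner in uptake, averaged 714 ± 168 and 720 ± 15.4 CPM in Sept2C111A and wild-type libraries (adjusted p 0.964).

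Of 7 tested membrane and soluble regulators, edgeR called none, while 2 had an unadjusted p under 0.05, as had 24.8% of all tested genes. DESeq2 called 2 higher and limma voom 1, where 11.6% and 10.8% of all tested genes were called in either direction. Cr1l, the mouse inhibitor of C3 convertases also known as Crry, averaged 72.8 ± 2.39 CPM in Sept2C111A and 65.1 ± 0.475 CPM in wild-type libraries, without overlap (log2 fold change 0.16, edgeR adjusted p = 0.0989). Cd55, decay-accelerating factor, named after its values were seen, averaged 5.78 ± 0.885 CPM in Sept2C111A and 4.10 ± 0.263 CPM in wild-type libraries, and its adjusted p of 0.050 lay just above the threshold. Cd59a, which blocks the membrane attack complex, did not pass either (-0.19 on the same scale, adjusted p 0.207). Of 14 initiating factors listed, 12 were found, 8 were under 1 CPM in every library and 4 were tested, with none called by edgeR, DESeq2 or limma voom and 1 (Fcna) at an unadjusted p under 0.05. C1ra, a protease that works with C1q, averaged 32.2 ± 2.24 CPM in Sept2C111A and 28.5 ± 2.64 CPM in wild-type libraries (adjusted p 0.210). Fcna, a lectin of the ficolin family, averaged 14.6 ± 2.79 CPM in Sept2C111A and 11.6 ± 0.965 CPM in wild-type libraries (adjusted p 0.142), and passed without Sept2C111A library 4 (0.0323). Of 6 terminal pathway genes found, 1 was tested: C8g, a chain of C8, averaged 1.04 ± 0.287 and 1.03 ± 0.308 CPM in Sept2C111A and wild-type libraries (adjusted p 0.998), and the others reached at most 0.284 CPM.

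For each component, the 3 genes whose log2 CPM followed it most closely over the 8 libraries were taken by Pearson correlation among tested genes averaging 10 CPM or more. C3 was followed by Nfkbiz (r = 0.988), which encodes a nuclear inhibitor-of-NF-κB family protein, Icam1 (0.966), an adhesion molecule gene, and Icosl (0.962), a costimulatory ligand gene, and 54 genes exceeded 0.9. C1qa was followed by Asl, Tada3 and Bag1 (r = 0.998, 0.996 and 0.993), C1qb by Rps4x, Zmat5 and Mvb12a (0.994, 0.993 and 0.991), and C1qc by Qars, Npc2 and Naglu (0.993, 0.992 and 0.991). Many genes shared the C1q pattern: 789, 779 and 536 exceeded 0.9 for C1qa, C1qb and C1qc. Cfp was closest to Rilpl2, Hexa and Dnase1l1 (r = 0.990, 0.989 and 0.988; 416 genes over 0.9). C2 was closest to Mlkl, Ifi27l2a and Hscb (0.965, 0.958 and 0.956), C4b to Pde6d, Fabp4 and Cops3 (0.953, 0.952 and 0.948), and Cfb to Nmi, Tbc1d13 and Acads (0.947, 0.929 and 0.926). These correlations describe 8 libraries that share a genotype split and the same standing-apart libraries.

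**Figure D5:**
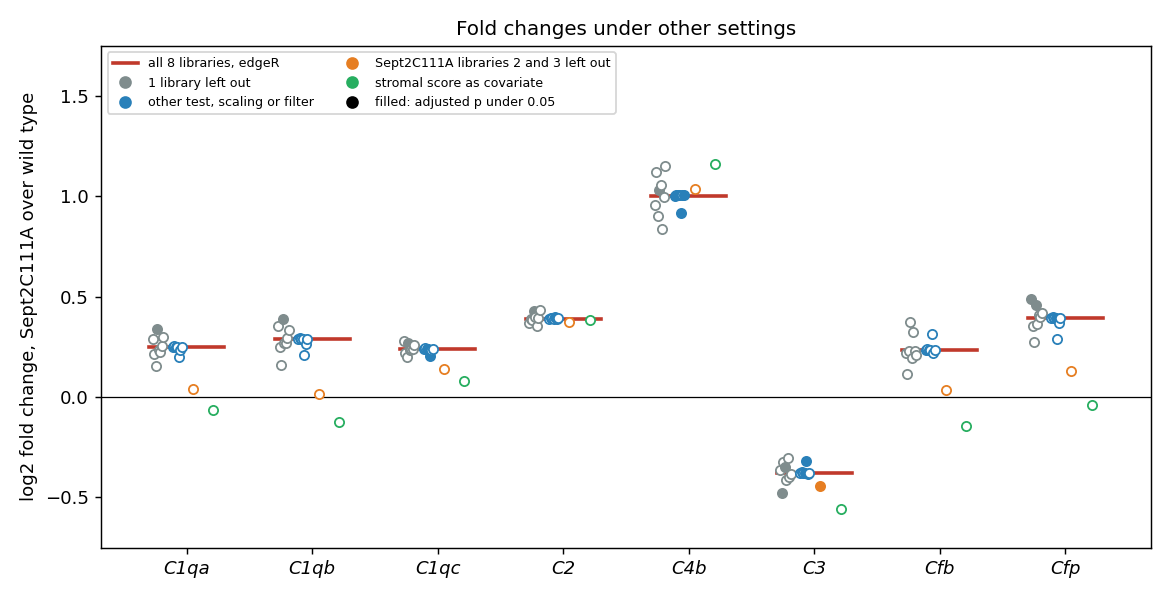
Log2 fold change of each component, Sept2C111A over wild type, from all 8 libraries (red line) and under the alternatives (points), filled where the adjusted p was under 0.05. C1qc, C2, C3 and C4b stay on their side of 0 throughout, C1qc between 0.081 and 0.28 and C3 between -0.56 and -0.31. C1qa, C1qb, Cfb and Cfp fall below 0 with the stromal score as a covariate. Without Sept2C111A libraries 2 and 3, C1qa, C1qb and Cfb lie at 0.040, 0.018 and 0.035, and Cfp and C1qc close together at 0.13 and 0.14.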

How the data were processed

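RNA was measured in 8 libraries of TNF-α-treated bone-marrow-derived macrophages, 4 Sept2C111A and 4 wild-type by their titles. Expected counts, 1 value per gene symbol and library, were deposited by the authors; they are model estimates of each gene's reads and are not scaled to depth. Per the submitters' processing notes, Bowtie2, RSEM 1.3.1, DESeq2 1.4.5 and the build mm10 were used, with no role stated; not given in the sources used here are annotation, strandedness and gene filters. Per the labels' protocols, mRNA was enriched with oligo(dT) beads.

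Expected counts were rounded, filtered with filterByExpr (minimum count 10; 12462 of 17364 genes left), scaled by TMM and tested in edgeR 4.0.16 (R 4.3.3) by its two-sided quasi-likelihood F test on genotype alone, and p was adjusted by Benjamini-Hochberg over every tested gene. Adjusted p under 0.05 made a call. SE equals the absolute log2 fold change over root F. The script was tested on simulated counts. Alternatives used DESeq2 1.42.0, limma 3.58.1 (voom with sample weights), other scalings and filters, a replicate block and libraries left out; 3 were added after the data were seen. Positions and lengths came from GENCODE M21, promoters from RefSeq (4 of 8 components matched).

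The components and lists were chosen with earlier results of these data known. All 8 components are described. From each list of other complement genes, called genes averaging 2 CPM or more (at most 6) and the 2 most abundant uncalled genes are named, then the 3 genes most like each component. A gene on the list of regulators is not reported here.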

Additional observations from a re-analysis of the deposited data

Results flagged for a closer look

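Among the 50 groups of 4 values examined for the components, the named complement genes, the C1q shares and the stromal score, 1 held a library far from the others of its genotype. Vsig4 was at 0.653 CPM in wild-type library 2, while the other wild-type libraries were at 0.382 to 0.424 CPM; the gap was 0.842 of the group's range, above Dixon's 95% critical value for 4 samples. Chance flags about 1 in 20 such groups, and all Sept2C111A libraries were still above that library.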

How the results depend on the processing

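Calls over all genes numbered 805 in edgeR, 1450 with DESeq2, 1343 with limma voom and sample weights, 494 with the replicate block, 492 without Sept2C111A libraries 2 and 3, 56 with the stromal score as a covariate and 266 to 2077 with 1 library left out. Components called higher and lower numbered 3 and 1 with DESeq2, 3 and 1 with limma voom, 0 and 1 with the replicate block, 0 and 1 without Sept2C111A libraries 2 and 3, 0 and 0 with the stromal score, and 0 to 6 and 0 to 1 with 1 library left out. Other scalings and filters on low counts changed no call of a component. By log2 fold change, C1qc passed with DESeq2 (0.24) and limma voom (0.21), C2 with limma voom (0.40), Cfp with DESeq2 (0.39), and C3 with DESeq2 (-0.38), limma voom (-0.32), the replicate block (-0.38) and without Sept2C111A libraries 2 and 3 (-0.44). C4b no longer passed with the replicate block (1.01), without Sept2C111A libraries 2 and 3 (1.04) or with the stromal score (1.16). With 1 library left out, the log2 fold change ran from 0.15 to 0.34 for C1qa, 0.16 to 0.39 for C1qb, 0.20 to 0.28 for C1qc, 0.36 to 0.43 for C2, -0.48 to -0.31 for C3, 0.84 to 1.15 for C4b, 0.11 to 0.37 for Cfb, 0.27 to 0.49 for Cfp, -0.16 to 0.19 for C8g and -0.18 to 0.091 for Lrp1. With the stromal score as a covariate the sign turned for C1qa (-0.065), C1qb (-0.12), Cfb (-0.14), Cfp (-0.039), Fcna (-0.064), C8g (-0.47) and Lrp1 (0.29). It also turned for C8g with limma voom (-0.15) and for C8g and Lrp1 without Sept2C111A libraries 2 and 3 (-0.27 and 0.19). The cause was not tested. The replicate block also ended the calls of C3ar1 (0.26; adjusted p 0.0994) and C5ar1 (-0.30; adjusted p 0.0572). Same-numbered libraries did not pair: their deviations correlated at 0.137, 0.0956, -0.0230 and -0.237 for numbers 1 to 4, and 2 of 8 libraries correlated best with their own number. C4b rests on 133 counts in Sept2C111A and 69 in wild-type libraries, so its ratio is the least precise among the 8 components.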
